A study of Mus musculus with 2 samples.

Results

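The 39 protein-coding Hox genes of the mouse lie in 4 clusters, and the 45 CTCF peaks in and around these clusters in newborn midbrain are described here. Genes were taken by name from the GENCODE vM21 annotation of assembly mm10, in which 21755 protein-coding genes were considered. The Hoxa cluster has 11 genes on chromosome 6 (chr6:52155590-52260880, minus strand), Hoxb has 10 on chromosome 11 (chr11:96194316-96368256), Hoxc has 9 on chromosome 15 (chr15:102921103-103036852) and Hoxd has 9 on chromosome 2 (chr2:74668310-74765142). The last 3 clusters are on the plus strand. A peak was a member where its summit lay between the first and the last gene of a cluster or within 100 kb on either side. Of the 68590 peaks of the deposited optimal list on chromosomes 1 to 19 and X, 27 lay inside the clusters and 18 in the flanks.

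Chromatin immunoprecipitation with a CTCF antibody, followed by sequencing, was done on whole midbrain of B6NCrl mice on postnatal day 0. The 2 replicates form 1 group, with no other condition to compare, and they share 1 biosample and 1 donor record, so differences between them may be technical only. The optimal list was thresholded by the irreproducible discovery rate, which compares the ranks of peaks between sets. The signal value of a peak is the authors' own, of unstated scale, and read depth is unknown.

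Hox genes encode homeodomain transcription factors that give the parts of the body axis their identity. In each cluster all genes are transcribed in the same direction, and genes with the same number in different clusters (a paralog group) descend from 1 ancestral gene. Genes at the group 1 end are expressed early and furthest forward, up to the hindbrain, and genes at the group 13 end late and in the tail, limbs and genitalia. The midbrain lies in front of the Hox expression domains, where the clusters are held silent by Polycomb proteins. CTCF binds DNA through its zinc fingers at a motif with a direction, and stalls the cohesin ring to form loop ends. Its sites in Hox clusters are known as borders between active and Polycomb-bound chromatin. Expression was not measured here.

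In each of the 4 clusters, the peak of highest signal lay between the group 9 gene and the next gene on its group 1 side. These sites are shown first because they are the position the clusters share. Each sequence is the mm10 reference on the strand of the Hox genes, with the 20 bases matched by the CTCF weight matrix in capitals and the next 10 bases in lower case. The Hoxa site (chr6:52221794-52221823, minus strand) is in a UTR of an upstream Hoxa7 transcript. The Hoxb site (chr11:96278945-96278974, plus strand) and the Hoxd site (chr2:74702392-74702421, plus strand) are intergenic, and the Hoxc site (chr15:102987590-102987619, plus strand) is in an intron of a long Hoxc5 transcript.
Hoxa9-Hoxa7: ATTCCAGGAGATGGCAGTGTggctccacgc
Hoxb9-Hoxb8: TGGCCGCTAGATGGCATCCTtgctccatat
Hoxc9-Hoxc8: TGAACGCGAGGTGGCGCTGTtgctcaatgt
Hoxd9-Hoxd8: TGGCCACTAGAGAGCGCTGTtgctccactt

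The consensus of the matrix, learned from strong peaks on other chromosomes, is TGGCCACCAGGGGGCGCTAG. Of the 20 matched positions, 6 held the same base in all 4 sites. Pairs of these sites shared 11 to 13 of 20, beside a median of 11 over all 136 pairs of matched cluster sites. Just after the match, outside the matrix, 5 of 10 positions were identical in all 4. The letters GCTC stood at bases 2 to 5 after the match in 4 of 4 sites, against 1.19% of the 39295 matched sites of the whole optimal list. This string was picked after the 4 sequences were seen, so its share is a description. Over all 10 bases and on the motif's strand, GCTC occurred in 3 of the other 13 matched cluster sites and in 3.63% of all matched sites.

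**Figure D1:**
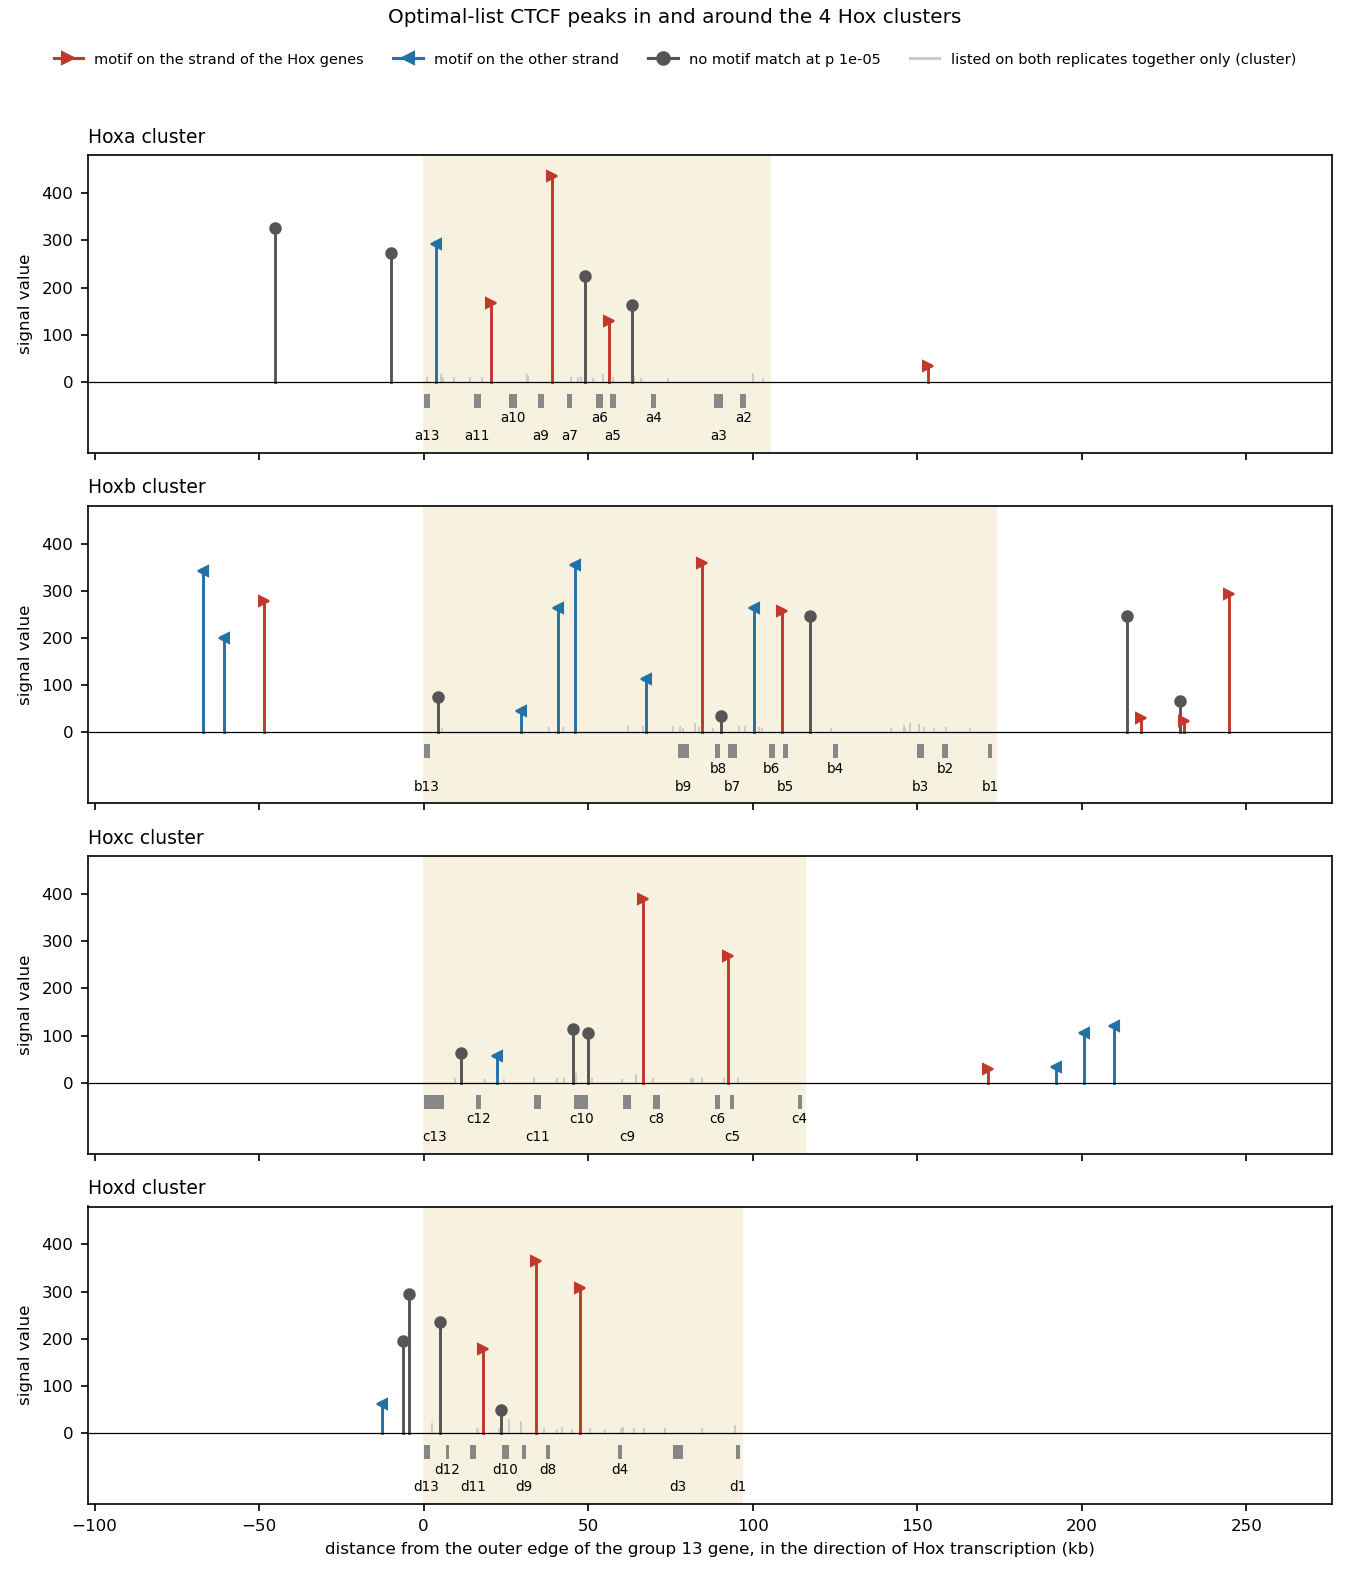
Signal value of each optimal-list peak (stems) along the Hoxa, Hoxb, Hoxc and Hoxd clusters and their 100 kb flanks, against distance in kb from the outer edge of the group 13 gene in the direction of Hox transcription. Shading marks the cluster, grey boxes coding spans of Hox genes and triangles the motif strand. Short grey lines are the peaks listed only when both replicates were called together. The tallest stem of each cluster stands after the group 9 gene, and no stem stands at the coding spans of groups 3 to 1.

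The peak between Hoxa9 and Hoxa7 had a signal of 437, with 234 in replicate 1 and 203 in replicate 2. Between Hoxb9 and Hoxb8 the signal was 359 (185 and 173), between Hoxc9 and Hoxc8 it was 388 (217 and 172), and between Hoxd9 and Hoxd8 it was 364 (193 and 173). The 4 optimal-list signals were far above that list's median of 76.5, though these peaks were picked as the strongest of their clusters. Among optimal peaks found in both replicates, they stood at or above percentile 89.1 in replicate 1 and 90.8 in replicate 2. In Hoxa, Hoxc and Hoxd the next strongest cluster peak was lower, at 293, 268 and 307. In Hoxb it was nearly level, at 355 between Hoxb13 and Hoxb9. Replicate 1 alone ranked that Hoxb peak first, at 198 against 185, so the group 9 position led in 3 of 4 clusters without replicate 2. The summits lay at similar distances before the coding start of the next gene, 4404 bp before Hoxa7, 4008 bp before Hoxb8, 3181 bp before Hoxc8 and 3139 bp before Hoxd8. The Hoxa cluster has no group 8 gene, so Hoxa7 takes that place. The motif was on the strand of the Hox genes in 4 of 4.

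The group 5 genes formed the next shared position. Hoxa5, Hoxb5 and Hoxc5 act in the neck and upper trunk, among other places in lung, shoulder and motor neurons, and the Hoxd cluster has no group 5 gene. A peak lay just upstream of the nearest annotated start in 3 of 3, with the summit 78 bp before Hoxa5, 84 bp before Hoxb5 and 110 bp before Hoxc5. Hoxb5 has 2 annotated starts, and from that of its longest coding transcript the summit was 260 bp away. The distance to the coding start was 315, 362 and 377 bp. The stretches around these promoter sites are printed below on the strand of the genes, with the matched 20 bases in capitals. Their positions are chr6:52204624-52204703 (minus strand), chr11:96303212-96303291 (plus strand) and chr15:103013669-103013748 (plus strand).
Hoxa5 promoter: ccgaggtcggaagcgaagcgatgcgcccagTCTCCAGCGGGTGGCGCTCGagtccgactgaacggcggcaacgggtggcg
Hoxb5 promoter: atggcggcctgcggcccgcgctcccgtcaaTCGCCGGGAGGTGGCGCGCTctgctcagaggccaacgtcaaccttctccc
Hoxc5 promoter: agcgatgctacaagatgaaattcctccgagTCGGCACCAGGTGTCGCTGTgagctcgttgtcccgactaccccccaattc

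The motif again pointed along the genes in 3 of 3, and 10 of its 20 positions were the same in all 3 sites. Pairs of these sites shared 13 or 14 of 20. Over all 136 pairs of matched cluster sites the median was 11, with a range of 7 to 16. Over the full 80 bases, aligned on the match, 18 positions were the same in all 3, the 10 in the match included. Signal was 130 at Hoxa5 (68.0 and 62.6 in replicates 1 and 2), 257 at Hoxb5 (133 and 124) and 268 at Hoxc5 (149 and 119). Hoxa5 was thus the lowest of the group in both replicates, and the values at Hoxb5 and Hoxc5 lay close together, with Hoxb5 higher in replicate 2 and Hoxc5 higher in replicate 1. The 200 bp around the summit held 21 CpG at Hoxa5 and 17 at Hoxb5, against 6 at Hoxc5.

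Other intervals of the same paralog numbers were compared next, from group 13 towards group 1. Between groups 13 and 11 or 12 every cluster except Hoxb, which has no genes of groups 10 to 12, held 1 peak after its group 13 gene. Group 13 genes shape digits, gut end and genitalia. The Hoxa13-Hoxa11 peak, in an exon of the transcript 9530018H14Rik, had a signal of 293 (160 and 133). The Hoxd13-Hoxd12 peak had 236 (116 and 121), and the Hoxc13-Hoxc12 peak only 63.0 (31.9 and 29.0). Hoxc was the low one in both replicates. The motif between Hoxa13 and Hoxa11 pointed against the genes, as did the best match between Hoxd13 and Hoxd12, whose score of 12.5 fell just under the threshold of 12.56. Hoxc13-Hoxc12 had no match, also at the looser p of 1e-04.

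The long Hoxb13-Hoxb9 interval, 75.3 kb without a coding gene of the cluster, held 5 of the 10 Hoxb peaks. Their signal ran, from Hoxb13 to Hoxb9, through 75.6, 45.5, 263, 355 and 113. The pair nearest Hoxb13 was weak in both replicates, at 47.2 and 25.7 and at 27.4 and 18.1, while the peak of 355 had 198 and 160. A motif was found at 4 of these 5 peaks, and all 4 matches pointed against the Hox genes, opposite to the site between Hoxb9 and Hoxb8. The last of the 5, of signal 113 (59.7 and 53.6), is in an exon of the long noncoding RNA gene Gm53, 132 bp from its start.

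Groups 12 to 10 act in limbs, kidney, uterus and the lumbar axis. The Hoxc12-Hoxc11 peak was weak, with 56.8 (34.6 and 22.9). Around group 10 each of Hoxa, Hoxc and Hoxd had a peak within 1 kb of an annotated start. The Hoxa10 peak, 249 bp from an upstream start and in a UTR of that transcript, had 168 (90.3 and 76.3). The Hoxc10 peak, 199 bp from the start, had 114 (69.1 and 44.2), and the Hoxd10 peak, 119 bp from the start, had 49.9 (18.95 and 29.6). The order Hoxa10, Hoxc10, Hoxd10 was the same in both replicates. Unlike at group 5, these peaks were not at 1 distance: the Hoxa10 summit was 5612 bp before the coding start, the Hoxc10 summit 261 bp and the Hoxd10 summit 175 bp.

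No optimal peak lay between groups 10 and 9 in any of the 3 clusters that have both genes. These intervals covered 6.40 kb in Hoxa, 10.6 kb in Hoxc and 3.69 kb in Hoxd. The conservative list, however, held a weak peak of 23.1 between Hoxd10 and Hoxd9. The Hoxd12-Hoxd11 interval of 6.34 kb had none either.

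A further Hoxd peak, in an exon of a Hoxd11 transcript, lay 5490 bp before the Hoxd10 coding start, near the distance of the Hoxa10 peak. Its signal was 178 (98.9 and 77.5), close to the 168 at Hoxa10. Both sites had the motif along the genes. The sequences (chr6:52240526-52240555, minus strand, and chr2:74686477-74686506, plus strand, matched bases in capitals) shared 20 of 30 positions.
Hoxa11-Hoxa10: CCGCCACGAGATGGCGCACTcccgatcaat
Hoxd11-Hoxd10: CAGCCACACGAGGGCGCGCTcatgttccag

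Of the 27 cluster peaks, 1 lay within a coding span, in a coding exon of Hoxc10, with a signal of 106 (57.0 and 49.7). The coding spans made up 16.1% of the cluster length. The best motif window in the Hoxc10 exon (chr15:102970921-102970950, minus strand, matched at a p of 1e-04) shared 22 of 30 positions with the site in the Gm53 exon of the Hoxb cluster (chr11:96261738-96261767, minus strand, matched at 1e-05). They are printed because this pair is among the 3 most alike of the 351 pairs of cluster sites, over which the median was 13 of 30. The other pairs at 22 of 30 were Hoxa5-Hoxa4 with Hoxb5-Hoxb4, and Hoxa13-Hoxa11 with Hoxc9-Hoxc8, which lie at different positions and point opposite ways relative to the genes. Both windows printed here lie against the direction of the Hox genes.
in Hoxc10: TAATCTCCAGGCGGCGCTCTcgcgtcaaat
Hoxb13-Hoxb9, Gm53 exon: CGACCTCTAGGCGGCGCCCTggcgttgaat

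The bases after the match were also alike outside the group 9 position. The Hoxd13-Hoxd12 window (chr2:74673163-74673192, minus strand, against the genes) shared 9 of 10 downstream bases with the Hoxa9-Hoxa7 site, and the Hoxc11-Hoxc10 window at the Hoxc10 promoter (chr15:102966569-102966598, plus strand) shared 8 of 10 with it. Over all 351 pairs the median was 3 of 10, and 7 pairs shared 8 or more. These windows matched the matrix at 1e-04 and not at 1e-05. The pairs were picked for their likeness.
Hoxd13-Hoxd12: CGCCCAGGAGATGGCGAGCGtgctccacgc
Hoxc11-Hoxc10: CAGCTGCTAGGTGGCGCTGTtactccacgc

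Between groups 9 and 4 lie genes that pattern the thoracic and cervical axis. Hoxb8 and Hoxb7 are separated by 2.26 kb, and the peak there, in a UTR of Hoxb8, was the weakest in any of the clusters, with 35.9 (19.4 and 16.4). The Hoxa7-Hoxa6 peak had 225 (117 and 108) and the Hoxb7-Hoxb6 peak 264 (144 and 120), at 3107 and 4473 bp before the next coding start. The motif pointed against the genes at both, at a p of 1e-05 in Hoxb and at 1e-04 in Hoxa. Hoxc has no group 7 gene, and its Hoxc8-Hoxc6 interval, 16.8 kb long, had no optimal peak.

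The last peak before the group 4 coding start also recurred. The Hoxa5-Hoxa4 peak had 164 (79.4 and 85.0), and the Hoxb5-Hoxb4 peak had 247 (142 and 106), at 5786 and 7020 bp before the coding start of the group 4 gene. In Hoxd, which has no genes of groups 7 to 5, the Hoxd8-Hoxd4 peak had 307 (168 and 144). It lay 11340 bp before the Hoxd4 coding start and 57 bp from the start of the antisense gene Hoxd3os1. This Hoxd peak is in introns of Hoxd4 and Hoxd3, and the Hoxa peak is in an intron of Hoxa3. The Hoxc5-Hoxc4 interval, 19.3 kb long, had none. Neither the Hoxa nor the Hoxb peak had a match at 1e-04, yet their best windows (chr6:52197451-52197480, minus strand, and chr11:96311739-96311768, plus strand) shared 22 of 30 positions with each other, again among the 3 most alike pairs. They shared 8 of the 10 bases after the 20-base window. The Hoxd8-Hoxd4 site (chr2:74715918-74715947, plus strand), which did match at 1e-05, shared 19 of 30 with the Hoxa window and 16 of 30 with the Hoxb window. It also shared 19 of 30 with the Hoxa6-Hoxa5 and Hoxc9-Hoxc8 sites, which lie at other positions.
Hoxa5-Hoxa4: TCGCCAGCAGAGCTCGCTTTagtacaagtt
Hoxb5-Hoxb4: CTGCCAGTAGAGTCCGCCTTagaccaagtt
Hoxd8-Hoxd4: TGTCCAGGAGGAGGCGCTGTaggacaagcg

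**Figure D2:**
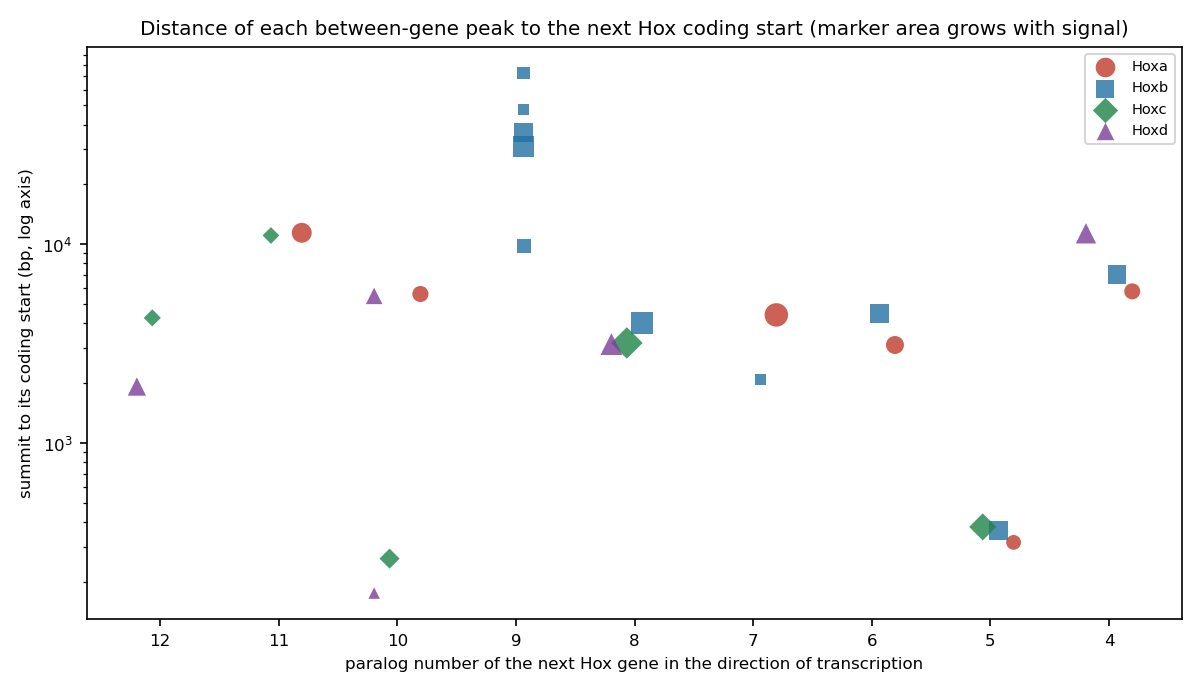
Distance in bp, on a log axis, from the summit of each of the 26 between-gene peaks to the coding start of the next Hox gene, against the paralog number of that gene. Marker shape gives the cluster and marker area grows with signal; the group 5 points lie together between 315 and 377 bp, and the large markers before group 8 (group 7 in Hoxa) between 3139 and 4404 bp.

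From the coding start of the group 4 gene to the end of each cluster no optimal peak was listed. This stretch, counted from the group 4 coding start, covered 36.1 kb in Hoxa, 49.5 kb in Hoxb, 2.13 kb in Hoxc, where Hoxc4 is the last gene, and 37.9 kb in Hoxd. Over the 125.58 kb in all there were 0 peaks, against 27 over the other 366 kb of the clusters, or 73.7 per Mb. Some transcripts of Hoxd4, Hoxd3 and Hoxa3, however, start further towards group 13. The Hoxd8-Hoxd4 peak is in introns of Hoxd4 and Hoxd3. The Hoxa7-Hoxa6, Hoxa6-Hoxa5 and Hoxa5-Hoxa4 peaks are in introns of Hoxa3. Of the 35 intervals between neighbouring coding spans, 21 held an optimal peak. The 14 without one had a median length of 11390 bp (3690 to 23923 bp). Those with a peak had 8106 bp (2017 to 75315 bp), so both sets held short and long intervals. Of 27 intervals above group 4, 21 held a peak, and of the 8 below it, 0 did. The division at group 4 was not set in advance and falls after the last peak of each cluster. The counts on its sides are thus a description. The genes of this end, such as Hoxb1, Hoxa2 and Hoxb2, specify hindbrain segments and neural crest.

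The list called on both replicates together, which holds 300000 peaks and was not thresholded by the discovery rate, gave 19 weak peaks in this end stretch. The highest had a signal of 17.9 in Hoxa, 17.2 in Hoxb and 14.7 in Hoxd, and Hoxc had none. The Hoxb one lies between Hoxb4 and Hoxb3, with 15.7 in replicate 1 and no listed peak in replicate 2, and was the 1 peak counted in this stretch without replicate 2. The Hoxd one was 7 bp from the Hoxd1 start. In the clusters as a whole, 79 peaks were in that list and not in the optimal one, and 12 of the 14 intervals without an optimal peak held at least 1. The highest of them, 27.0 in Hoxd10 and 23.1 between Hoxd10 and Hoxd9, were both in the conservative list, the other deposited list thresholded by that rate. All 79 were below the weakest optimal cluster peak, at 35.9. A missing peak means that none was listed, and absence of CTCF was not shown.

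Beyond the last cluster peak, the next optimal peak lay 89.9 kb further on in Hoxa (signal 35.0, in an intron of the noncoding RNA gene Halr1), 96.2 kb in Hoxb (246), 79.0 kb in Hoxc (28.4) and 249 kb in Hoxd (336). Towards the group 13 side, the first peak before the cluster's own lay 13.6 kb away in Hoxa (273), 53.0 kb in Hoxb (279), 125 kb in Hoxc (367) and 9.42 kb in Hoxd (295). Hoxa and Hoxd, whose group 13 ends adjoin the homeobox genes Evx1 and Evx2, thus had strong peaks close by on that side. In the Hoxa flank a second peak, 7444 bp from the Evx1 start, had 325 (169 and 155). In the Hoxd flank further peaks had 195 (109 and 85.9), between Evx2 and Hoxd13, and 61.9 (40.5 and 24.4), in a UTR of Evx2.

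In the Hoxb flank on the group 13 side, the peaks had 342 (195 and 148), 199 (101 and 97.7) and 279 (152 and 125). The one of 199 lay 88 bp from the start of Ttll6, a tubulin glutamylase gene, and the one of 279 in an intron of it. On the group 1 side of Hoxb there were 5 peaks, led by 293 (151 and 142), 246 (138 and 106) and 66.5 (47.1 and 19.1). The last of these and the weakest of the 5, at 23.4 (9.43 and 15.3), singled out after their values were seen, had replicate ratios of 1.30 and -0.70 on the log2 scale. Both lay about 2-fold from the median ratio of all optimal peaks, in opposite directions, and the rest of the 45 peaks lay closer to it. The Hoxc flank held no peak on the group 13 side and 4 on the group 1 side, the highest at 121 (62.6 and 58.5), 105 (54.8 and 45.7) and 32.8 (14.6 and 18.8).

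The strand of the motif differed along the clusters. At a p of 1e-05, 17 of 27 cluster peaks (63.0%) held a match within 50 bp of the summit, beside 57.3% of all optimal peaks and 1.06% of windows 1 kb away from them. Of these 17, 10 pointed along the genes and 7 against. On the group 13 side of the group 9 interval, 2 of 8 matches pointed along the genes and 6 against, of which 4 were in the single Hoxb13-Hoxb9 interval. In the group 9 intervals 4 of 4 pointed along the genes, and on their group 1 side 4 of 5. The exception on that side was Hoxb7-Hoxb6. The counts are small and were divided at group 9 after the strands were seen. Cluster peaks with a match had a median signal of 264, against 110 for those without, and the same order held over the whole list, at 128 against 49.0.

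Promoters of Hox genes were counted next, with a promoter peak defined as a summit within 1 kb of any annotated start. Of all protein-coding genes, 43.4% had one, and of the 39 Hox genes 7 did: Hoxa5, Hoxa7, Hoxa10, Hoxb5, Hoxc5, Hoxc10 and Hoxd10. All 3 group 5 genes and all 3 group 10 genes were among them, and Hoxa7 was the only other. Its peak is the one of the group 9 interval, 45 bp from an upstream Hoxa7 start and 4304 bp from the start of the longest coding transcript. With that start alone Hoxa7 and Hoxa10 dropped out and 5 genes were left. With the conservative list 8 Hox genes had a promoter peak. The added gene was Hoxd9, with a weak peak of signal 23.1 lying 25 bp from its start. Within 5 kb of a start, 25 of 39 Hox genes had a peak, where 61.3% of all protein-coding genes did. The median distance from a Hox gene's nearest start to a summit was 4159 bp, and the largest was 47041 bp, at Hoxd1. Thus the Hox share lay below that of all genes at 1 kb and near it at 5 kb. These shares are descriptions, since genes of 1 cluster share peaks and are not independent.

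**Figure D3:**
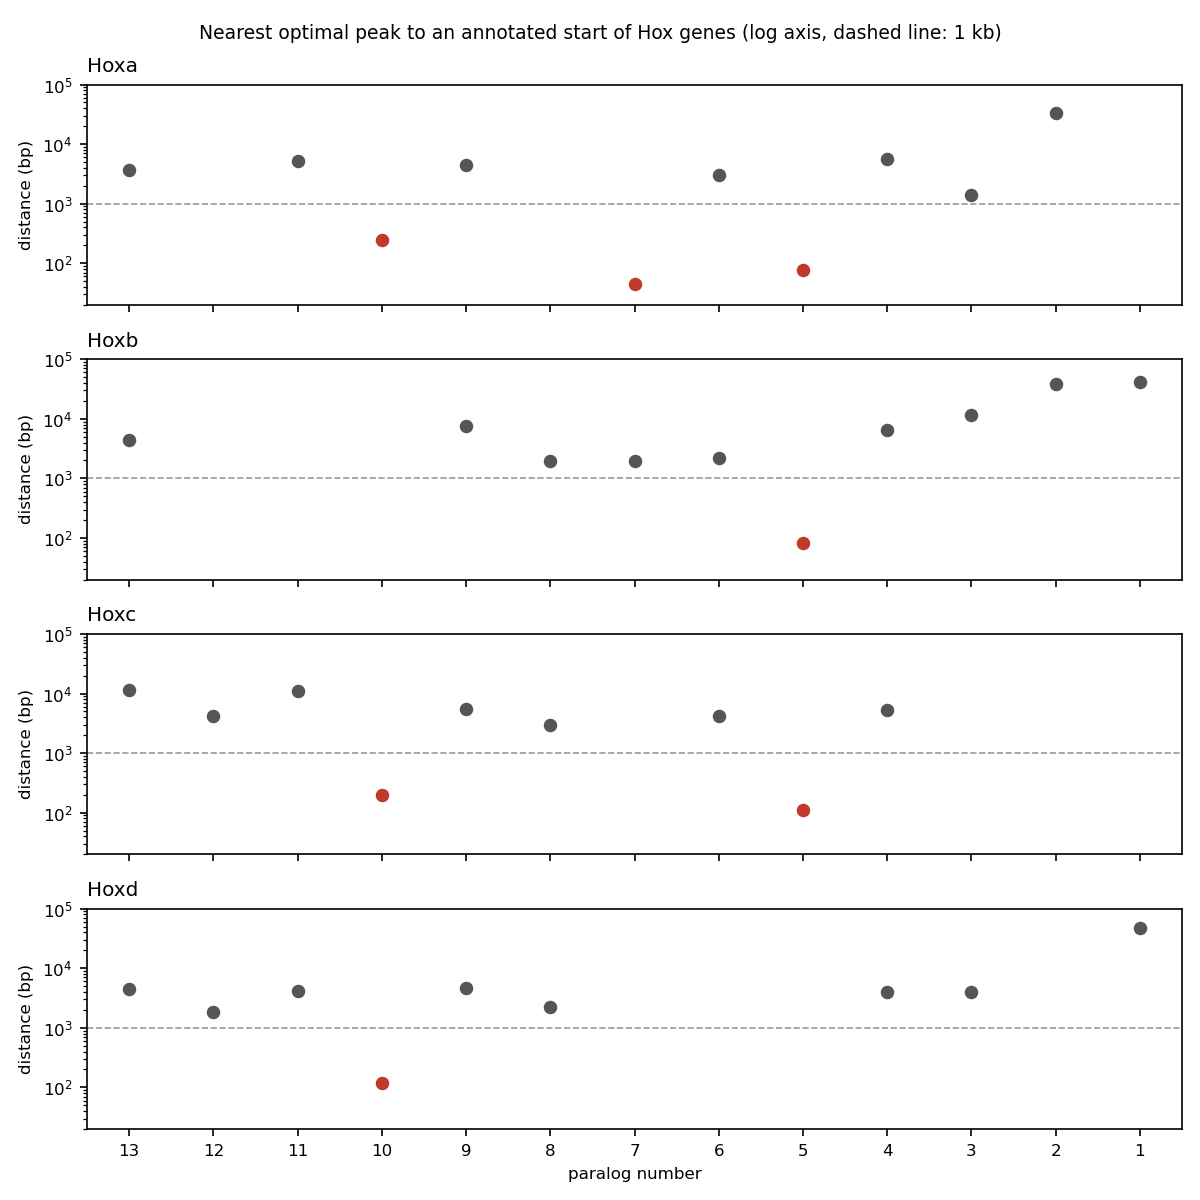
Distance in bp, on a log axis, from the nearest annotated start of Hox genes to the nearest optimal summit, by paralog number and cluster. The dashed line is 1 kb and the 7 genes under it are in red, with all group 5 and group 10 genes among them; Hoxa2, Hoxb1, Hoxb2 and Hoxd1 stand far above it.

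Peaks were denser in the clusters than over the autosomes, at 57.0 per Mb in Hoxa, 57.5 in Hoxb, 51.8 in Hoxc and 51.6 in Hoxd, beside 27.2 over all autosomes. With the 100 kb flanks included, the density was 29.5 per Mb in Hoxa, 48.1 in Hoxb, 31.7 in Hoxc and 27.0 in Hoxd. Only the Hoxb window then stood far above the autosomes. Neighbouring cluster peaks were a median of 10866 bp apart, against 13438.5 bp between neighbours over the whole list. The first value leaves out gaps that reach beyond a cluster, so these medians are not like for like. The cluster peaks were also stronger than most, with a median signal of 225 (35.9 to 437), and 21 of 27 stood above the median of the whole list. Signal varied between the clusters, with a median of 252 in Hoxb, 236 in Hoxd, 197 in Hoxa and 110 in Hoxc. In Hoxc 4 of 6 peaks were at 114 or lower, and all 4 lay on the group 13 side of Hoxc9. The 200 bp around the summits had a median GC content of 59.5% and 9 CpG, against 48.5% and 2 over the whole list, and 40.7% held no repeat-masked base, against 37.3%. Whether base composition had a part in signal was not tested.

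The replicates ranked the Hox peaks alike. All 45 were found in both replicate lists, as were 67101 of all 68590 optimal peaks. Of the 45, 42 were in the conservative list, and all 27 cluster peaks were among these. The share of the whole optimal list in the conservative list was not counted. Across the 27 cluster peaks Spearman's rho of replicate 1 and replicate 2 signal was 0.956, beside 0.948 across 67101 optimal peaks found in both. Peaks share libraries and are not independent, so no p is given. Replicate 1 had the higher value at 24 of 27 cluster peaks. The log2 ratio of replicate 1 to replicate 2 had a median of 0.23 with an SD of 0.28 over the cluster peaks, close to the 0.30 over all peaks, whose SD was 0.46. The exceptions were Hoxa5-Hoxa4, Hoxd13-Hoxd12 and the peak at the Hoxd10 promoter, where replicate 2 was higher, the last with the lowest ratio, at -0.64.

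**Figure D4:**
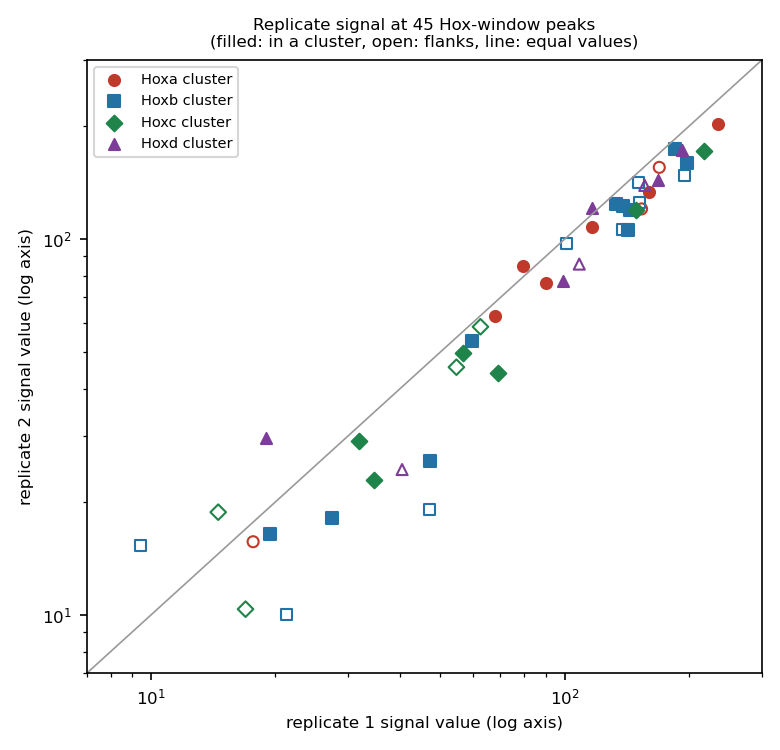
Signal value of replicate 2 against replicate 1 for the 45 peaks, both on log axes, with filled markers for cluster peaks, open markers for flank peaks and a line of equal values. Most points lie just below the line, as replicate 1 was higher at 24 of 27 cluster peaks, and the scatter widens at low signal.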

How the data were processed

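CTCF ChIP-seq peak lists from 2 replicates of newborn mouse midbrain were analysed. The authors deposited 5 narrowPeak lists on mm10, per the deposited text notes: 1 for each replicate, 1 called on both together, and an optimal and a conservative list thresholded by the irreproducible discovery rate. The deposited signal value per peak has no stated scale. For aligner, peak caller, read depth and rate threshold the entry is "not given in the sources used here". The 13 optimal peaks on scaffolds were left out.

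Summits were placed by the coding span of each Hox gene's longest coding transcript. Replicate values came from the summit within 100 bp in each replicate's list. A 20 bp matrix was learned from the 2000 strongest optimal peaks off chromosomes 2, 6, 11 and 15, and tested on simulated sequence. Matches were kept at a p of 1e-05 per position, up to 50 bp from a summit. GRCm38.p6 supplied sequence and repeat masking, GENCODE vM21 the genes, and coordinates are 1-based. There was no test, as 1 group has nothing to compare, and shares are printed with no interval. Named were all cluster peaks, Hox genes with a promoter peak, the 3 strongest flank peaks per side, and of each other list the 3 strongest members and up to 2 without a peak. A few items so chosen are not reported here. Pairs of sequences and the division at group 9 were chosen after values were seen. Members and lists were chosen with earlier results of these data known. Alternatives were the conservative list, the stronger 50%, each replicate alone, other flanks, promoter distances, starts, gene spans, motif settings and matching distances. Tools were Python 3.11.15, numpy 2.4.6, pandas 2.3.3, scipy 1.17.1, pysam 0.24.0 and matplotlib 3.10.9.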

Additional observations from a re-analysis of the deposited data

How the results depend on the processing

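Of 114 recomputed values, 101 moved by no more than 1.5 times. With flanks of 200 kb in place of 100 kb, 85 peaks were counted in place of 45. Within 5 kb of a start, promoter counts rose to 25 of 39 Hox genes, 8 of 9 cofactors and 19 of 23 Polycomb genes. They also rose to 12 of 19 upstream regulators and 9 of 14 neighbours, beside 61.3% of all protein-coding genes. In the stronger 50% of the optimal list, 2 of 9 cofactors and 3 of 10 Trithorax genes had a promoter peak. Within 500 bp of a start, 5 of 10 Trithorax genes did. The share of all protein-coding genes was counted only within 1 kb and 5 kb on the full optimal list. At a motif p of 1e-06, 5 cluster peaks held a match, 3 along the genes. Using the strongest peaks of a single replicate, 0 to 1 peaks lay from the group 4 coding start to the cluster end, the 1 without replicate 2. In the same setting 6 to 9 neighbours had a promoter peak, 9 without replicate 1. Leaving out a replicate also dropped the discovery rate threshold, and the cause was not tested. Clusters held 29 peaks in the conservative list, 21 in the stronger 50% and 28 with either replicate left out. No paired analysis was possible because there is 1 group. Depth is unknown, which limits what weak or unlisted peaks can show, and both replicates come from 1 biosample.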

Other observations

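The genes that work with or on the Hox clusters were read with the same promoter count. The lists are genes known for these roles, and none was tested as a set. Of all protein-coding genes, 43.4% had a promoter peak. Among 10 genes of the Trithorax (MLL) complexes, which keep Hox genes active, 8 had one, led by Kmt2b (signal 355), Wdr5 (221) and Men1 (203), while Kmt2a, best known as a Hox activator, and Kmt2c had none. Of the 8, however, 5 had a signal between 25.9 and 46.8, below the median of the whole list. Among 23 Polycomb genes, which keep the clusters silent, 12 had one. The strongest were at Pcgf5 (406), Ezh1 (340) and Pcgf3 (199), and the core genes Ezh2 and Suz12 had none.

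Hox cofactors, homeodomain proteins that bind DNA together with Hox proteins, had a promoter peak at 5 of 9. Pknox2 (260) and Meis3 (256) stood well above Pbx4 (56.5), and Meis1 and Meis2 had none. Among 19 upstream regulators, 5 had one, the lowest share of the 5 lists. Among them were Egr2 (224), which switches on group 2 genes in hindbrain segments, and the retinoid receptor gene Rxrb (205). The caudal-type gene Cdx1 and Otx2, which marks forebrain and midbrain, were without one. Of 14 neighbours of the clusters that matched the annotation, 5 had one, with Smug1 (487) and Skap2 (263) highest, then Ttll6 (199). Evx1 and Evx2, the homeobox genes next to Hoxa13 and Hoxd13, had none, though the nearest flank peaks stood 7444 and 2434 bp from their starts.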
